A study of Mus musculus with 2 samples.

Results

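The 9 genes described here handle fatty acids from the capillary to the first metabolic step inside the cell. They were chosen by gene symbol for their known roles, and all 9 were found among the 21113 genes of the table. The rule used no measured value, but earlier results of these data were known when the genes were chosen. Comparisons of the members with all genes are therefore descriptions. The data are sequences of polyadenylated RNA from mammary glands of mice of the C57BL/6 strain in week 6 after birth, with 1 library per genotype. The wild-type library is set against a library labelled Mir212/132ILN/ILN, from glands whose miR-212 and miR-132 locus carries an inserted IRES-LacZ-Neo (ILN) cassette on both alleles. These sources do not say how many animals or glands made up a sample, or how the inserted cassette affected the locus in this tissue, and neither microRNA was analysed here, which leaves the genotypes as labelled. Because each genotype had 1 library, no difference has a replicate check, no test was made and no p-value is given. Intervals in parentheses after the ratio of a gene between libraries are exact (Clopper-Pearson) 95% intervals. Those after a comparison of 2 genes' ratios are 95% intervals from a normal approximation of the log counts, and both cover counting error only. Of the tissue's defining cells, adipocyte markers were abundant in both libraries, whereas the luminal keratins Krt8, Krt18 and Krt19 had 742, 583 and 1029 fragments in wild type and 0, 2 and 24 in ILN/ILN, so the libraries stood apart in epithelial RNA.

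Triglyceride in circulating lipoproteins is cut on the capillary wall by lipoprotein lipase, which the endothelial protein GPIHBP1 carries across the cell and holds there, and ANGPTL4 inhibits the enzyme. The freed fatty acids enter cells with the help of CD36 and the fatty acid transport protein FATP1, are coupled to coenzyme A by acyl-CoA synthetases such as ACSL1, and are carried in the cytosol by the binding proteins FABP4 and FABP5. In the mammary fat pad of a young mouse, adipocytes use this route to store fat, and in lactation the epithelium uses it to take up fatty acids for milk.

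The cassette lies at the locus of microRNAs whose 3p arms share a seed, bases 2 to 8, through which they pair with messenger RNA. The mature sequences from the RefSeq table (GRCm38.p6) are shown because this seed was searched for in the members, and the seed is in capitals.
miR-132-3p: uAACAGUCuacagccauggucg
miR-212-3p: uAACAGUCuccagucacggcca
The complement of the seed, GACTGTT, was searched for in the longest 3′ untranslated region that the GENCODE M21 annotation (GRCm38) gives for each gene. These regions were 432 to 5091 bases long in the 9 members. The match was present in 1 of the 9, Fabp5, and in 1423 of the 11319 measured genes that could be searched (12.6%). In Fabp5 it covered bases 110 to 116 of a region of 487 bases, and it is in capitals with its flanks here.
Fabp5: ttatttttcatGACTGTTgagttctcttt
A match of these letters describes the annotation and is not a shown site of binding, and in the other 8 members these letters were not in the region searched. Over all searched genes the median log2 ratio was 0.06 with a match and 0.01 without one. The 2 groups were not matched for length, with which the ratios moved (below), and an effect of the seed was not tested.

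The deposited level of a gene is FPKM-like, that is, corrected for the gene's length and for the size of the library, and it allows levels of different genes to be compared within a library. Fabp4 had the highest value of all genes in both libraries. In the wild-type library the order was Fabp4, Lpl, Acsl1, Slc27a1, Fabp5, Angptl4, Gpihbp1, Cd36 and Vldlr. The ILN/ILN library kept this order except that Cd36, at 149 (147 to 151), stood above Gpihbp1, at 142 (138 to 146), whereas in the wild-type library Gpihbp1, at 112 (109 to 116), stood above Cd36, at 107 (105 to 108). The intervals here are exact Poisson 95% intervals of the levels, and those of these neighbours did not overlap in either library. The 9 genes together took 3.43% of the 46133338 fragments assigned to genes in the wild-type library and 3.69% of 42953129 in the ILN/ILN library. Without Fabp4 the shares were 0.977% and 1.31%.

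**Figure D1:**
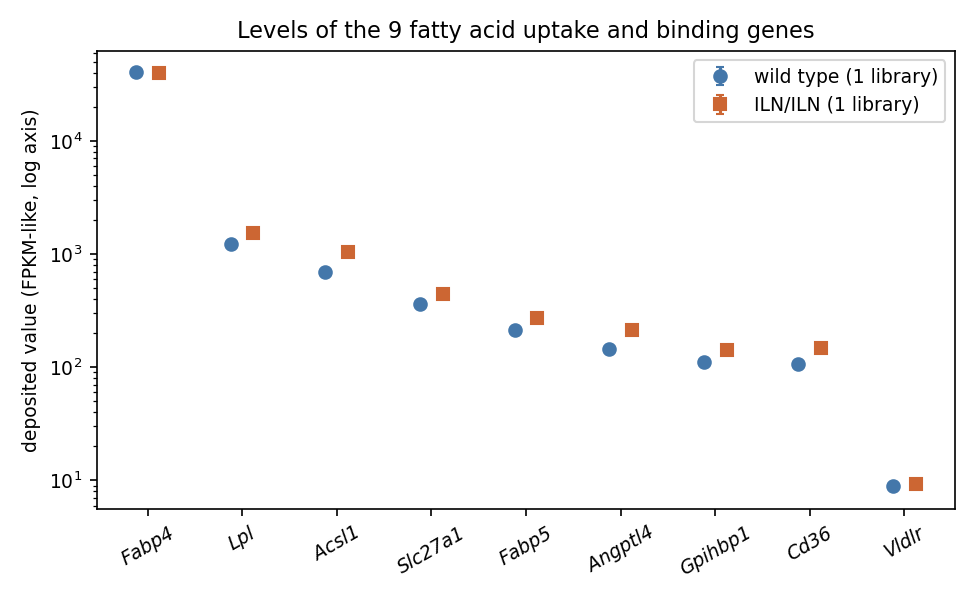
Deposited FPKM-like value (log axis) of the 9 genes in the wild-type library (circles) and the ILN/ILN library (squares), 1 library each, with exact Poisson 95% counting intervals that are mostly smaller than the symbols. Fabp4 lies at 40797 and 39645.5, Vldlr at 8.88 and 9.40, and the squares lie above the circles for every gene but Fabp4.

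Ratios between the libraries were taken from fragments, each divided by its library total. In bulk tissue, fewer cells of a type and less RNA per cell cannot be told apart. Of the 9 genes, 8 had a ratio above 1 in the ILN/ILN library, as did 52.9% of the 11556 measured genes, those that reached a value of 1 in one library or both. At least 25% higher were 6 of the 9, namely Acsl1, Angptl4, Cd36, Fabp5, Gpihbp1 and Lpl, where 12.1% of measured genes were. At least 1.5-fold higher was 1 of the 9, Acsl1, where 2.84% of measured genes were, and 0 of the 9 were 2-fold higher, where 0.762% were. The count of 1 was 0 when the median gene ratio was set to 1, and 0 relative to genes of like length. In the other direction 0 of the 9 were at least 20% lower, where 15.7% of measured genes were, 0 were 1.5-fold lower, where 7.57% were, and 0 were 2-fold lower, where 3.35% were. The median log2 ratio of the 9 was 0.34, beside 0.02 for all measured genes. The members are abundant genes, and 8 of them reached 100 in one library or both. Of the 948 genes at that level, 7.91% were 25% higher or more, beside 6 of the 8 members, 1.27% were 1.5-fold higher or more, beside 1 of the 8, and 0.316% were 2-fold higher, beside 0. Lower by 20%, 1.5-fold and 2-fold were 13.4%, 3.9% and 0.738% of them, beside 0 of the 8 members each time. A ratio above 1 was found in 46.2% of them and in 7 of the 8. Their median log2 ratio was -0.03, beside 0.35 for the 8 members.

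**Figure D2:**
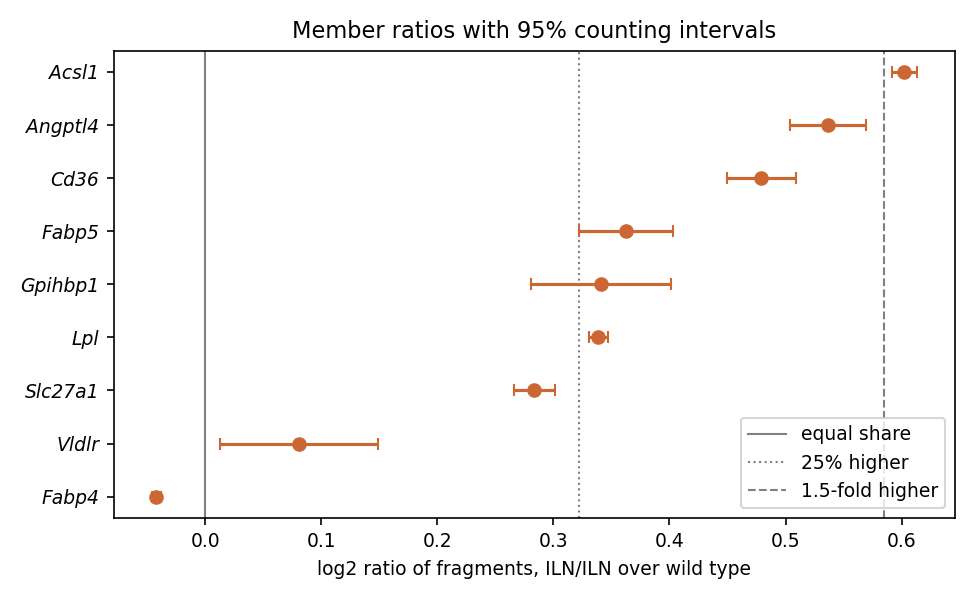
Log2 ratio of fragments, ILN/ILN over wild type, for each of the 9 genes (points) with exact 95% counting intervals (bars), and lines at equal share, 25% higher and 1.5-fold higher. The ratios run from -0.04 for Fabp4 to 0.60 for Acsl1.

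The lipoprotein lipase system came first along the route. Lpl, which encodes the lipase, was at 1219.6 in wild type against 1543 in ILN/ILN, with 229519 and 270249 fragments. It was thus 1.26-fold higher in the ILN/ILN library (1.26 to 1.27), and its place among all genes moved from 84 to 50. Gpihbp1, which encodes the endothelial platform of the lipase, was at 112 and 142, with 4099 and 4835 fragments. Its ratio of 1.27 (1.215 to 1.32) was so near that of Lpl that the level of Lpl relative to Gpihbp1 was 10.9 in wild type against 10.8 in ILN/ILN. The ratio of these quotients was 1.002 (0.961 to 1.04, here for Gpihbp1 over Lpl), which does not depend on how the libraries are scaled. It does depend on gene length: relative to the median log2 ratio of genes of like length, Gpihbp1, a short transcript, was at 0.45 and Lpl, a long one, at 0.18.

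Angptl4, which encodes the inhibitor of the lipase, differed more than the lipase itself. It was at 146 in wild type against 212 in ILN/ILN, with 13084 and 17668 fragments, and was 1.45-fold higher (1.42 to 1.48). The level of Lpl relative to Angptl4 was 8.34 in wild type against 7.27 in ILN/ILN, so the inhibitor was 1.15-fold higher relative to the enzyme (1.12 to 1.17). Vldlr encodes a receptor that takes up triglyceride-rich lipoproteins and was the least abundant member. It was at 8.88 and 9.40, with 3490 and 3437 fragments, and its ratio of 1.06 (1.01 to 1.11) left the libraries close together.

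Both genes of transport across the membrane were higher in the ILN/ILN library. Cd36, which encodes a scavenger receptor that binds long-chain fatty acids, was at 107 and 149, with 16123 and 20921 fragments, a ratio of 1.39 (1.37 to 1.42). Slc27a1 encodes FATP1, a transport protein of insulin-responsive tissues with acyl-CoA synthetase activity. It was at 363 in wild type against 442 in ILN/ILN, with 47903 and 54290 fragments, a ratio of 1.22 (1.202 to 1.23), just under 25% higher. Slc27a1 held 93.7% and 94.8% of the summed level of the 6 SLC27 genes, and the other 5 together were at 24.3 and 24.1.

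The cytosolic binding proteins went apart. Fabp4, the binding protein of adipocytes, macrophages and capillary endothelium, was at 40797 in wild type against 39645.5 in ILN/ILN and took 2.46% and 2.39% of all fragments (1132988 and 1024709). Its ratio was 0.971 (0.969 to 0.974), the lowest of the 9, so that the most abundant transcript of the gland differed least from an equal share. Fabp5, the epidermal binding protein that adipocytes and macrophages also make, was at 213 and 274, with 8890 and 10641 fragments. It was 1.29-fold higher (1.2498 to 1.32), and Fabp4 stood 191 times above Fabp5 in the wild-type and 144 times in the ILN/ILN library. Relative to Fabp4, Fabp5 was thus 1.32-fold higher (1.29 to 1.36). Both lie in a cluster of FABP genes on chromosome 3 whose order in RefSeq is Fabp5, Pmp2, Fabp9, Fabp4 and Fabp12. The other 3 genes of the cluster were near the detection limit, with 9 and 9 fragments for Pmp2, 2 and 4 for Fabp9 and 36 and 36 for Fabp12.

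Acsl1, which encodes the long-chain acyl-CoA synthetase of adipocytes, had the highest ratio of the 9 over library totals, while relative to the median of genes of like length Angptl4, Fabp5 and Gpihbp1 stood above it. Acsl1 was at 688 in wild type against 1045 in ILN/ILN, with 127491 and 180221 fragments, 1.52-fold higher (1.51 to 1.53). Its log2 ratio of 0.60 was 0.58 when the median gene ratio was set to 1 and 0.45 relative to genes of like length, both under 1.5-fold. Of the measured genes, 310 had a ratio at or above that of Acsl1 (2.68%), and its place among all genes moved from 162 to 90. Acsl1 held 95.3% of the summed level of the 5 ACSL genes in wild type against 97.2% in ILN/ILN, while Acsl3, Acsl4, Acsl5 and Acsl6 together were at 33.6 and 29.7. Acsl4, which favours arachidonic acid, had a ratio of 0.839 (0.734 to 0.958), Acsl5 of 0.986 (0.934 to 1.04) and Acsl3 of 0.963 (0.791 to 1.17), all by fragments. The deposited values of Acsl3 and Acsl4, which enter the sums above, were not made from fragments alone. These other synthetases were chosen after their values were seen. Members of the family thus lay on both sides of an equal share, with Acsl1 above it.

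Promoter windows were in the RefSeq table (GRCm38.p6, 250 bases before to 50 after a gene's start) for 4 of the 9 members, as 8 windows. Those of Acsl1 and Cd36, the members with the highest ratios among these 4, are shown. Capitals mark AGGTCA, the hexamer that nuclear receptors such as the PPARs bind, or the GC box GGGGCGGGG, searched on both strands.
Cd36, chr5:17835847-17836146, minus strand: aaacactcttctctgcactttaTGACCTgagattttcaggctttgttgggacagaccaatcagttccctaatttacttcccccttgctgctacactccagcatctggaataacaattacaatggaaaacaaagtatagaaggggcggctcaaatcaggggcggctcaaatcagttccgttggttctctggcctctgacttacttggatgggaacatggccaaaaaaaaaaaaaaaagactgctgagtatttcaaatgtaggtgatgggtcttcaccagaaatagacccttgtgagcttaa
Acsl1 upstream start, chr8:46470787-46471086, plus strand: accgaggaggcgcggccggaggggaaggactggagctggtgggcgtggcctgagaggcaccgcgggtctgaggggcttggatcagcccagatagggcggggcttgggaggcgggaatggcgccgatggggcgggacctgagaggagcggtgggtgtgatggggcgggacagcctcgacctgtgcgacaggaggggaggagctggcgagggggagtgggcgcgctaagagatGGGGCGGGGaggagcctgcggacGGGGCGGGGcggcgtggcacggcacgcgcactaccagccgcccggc
Acsl1 downstream start, chr8:46490716-46491015, plus strand: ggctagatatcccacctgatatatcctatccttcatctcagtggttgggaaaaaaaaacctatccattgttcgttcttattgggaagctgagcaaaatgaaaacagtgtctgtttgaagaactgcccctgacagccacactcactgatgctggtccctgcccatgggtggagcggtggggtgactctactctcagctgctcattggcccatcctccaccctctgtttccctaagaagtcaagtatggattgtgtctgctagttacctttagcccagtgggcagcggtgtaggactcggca
The Cd36 window held 1 AGGTCA on the opposite strand, first base at position -228 from the start, and AGGTCA was in 16.3% of all 32851 windows of this length. The upstream Acsl1 window had 74% G and C and held 2 GC boxes, whereas the downstream window had 50% and held none. Of the windows not shown, that of Slc27a1 at chr8:71570344-71570643 held 1 GC box, first base at position -18, and the others held none. At least 1 GC box was in 11.4% of all windows. AGGTCA followed by any 1 base and a second AGGTCA, the PPAR response element in its plainest form, was in none of the 8 windows and in 0.0396% of all windows. These are descriptions of letters in the reference. The gene table gives 1 value for Acsl1, so fragments from its upstream and downstream starts cannot be told apart. In RefSeq, Acsl1 also overlaps the long noncoding gene Gm31050 and Vldlr overlaps Gm35438. Neither is in the table, and whether the counting used strand is not stated in these sources, so the values of Acsl1 and Vldlr may hold fragments of those genes.

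The 9 genes did not share a single ratio. Of the 36 pairs of members, the 95% interval of the ratio between their ratios excluded 1 in 32 and included it in 4. These 4 pairs were Fabp5 with Gpihbp1, Fabp5 with Lpl, Gpihbp1 with Lpl and Gpihbp1 with Slc27a1. In the order of ratios, each other neighbouring pair differed by more than counting error. Acsl1 stood 1.05-fold above Angptl4 (1.02 to 1.07), Angptl4 1.04-fold above Cd36 (1.01 to 1.07), and Cd36 1.08-fold above Fabp5 (1.05 to 1.12). Lpl stood 1.04-fold above Slc27a1 (1.03 to 1.05). At the lower end Slc27a1 stood 1.15-fold above Vldlr (1.10 to 1.21) and Vldlr 1.09-fold above Fabp4 (1.04 to 1.14). From end to end Acsl1 stood 1.56-fold above Fabp4 (1.55 to 1.57). Such pairs compare the 2 libraries and carry no spread between animals. With at least 3437 fragments per member and library these intervals are narrow. The share of other gene pairs that exclude 1 was not computed, so the 32 of 36 is not shown to be particular to the members. The order also depends on length, since relative to its length band Angptl4 was at 0.53 and Acsl1 at 0.45.

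The deposited gene length moved with the ratios. It can differ from the length of the transcript: it is 752 bases for Gpihbp1, whose 3′ untranslated region searched above has 1291. Among the 948 genes at 100 or more in either library, the median log2 ratio was -0.11 for 413 genes up to 1000 bases, 0.01 for 311 genes above that and up to 2000, 0.14 for 132 genes up to 3000, 0.15 for 59 genes up to 4000 and 0.17 for 33 longer genes. Relative to the median of its length band, a comparison added after seeing the data, Angptl4 (1842 bases) was at 0.53, Fabp5 (858 bases) at 0.48, Gpihbp1 (752 bases) at 0.45 and Acsl1 (3817 bases) at 0.45. Cd36 (3115 bases) was at 0.32, Lpl (3876 bases) at 0.18 and Slc27a1 (2721 bases) at 0.15 on the same scale. Fabp4 (572 bases), which had a log2 ratio of -0.04 over library totals, was at 0.07 relative to its band, and Vldlr (8096 bases), with a log2 ratio of 0.08, was at -0.09, so both changed sign. Relative to bands of genes at 100 or more, 5 of the 9 lay at least 25% above their band and 0 reached 1.5-fold. The share of all genes that far above their own band was not computed, so these counts have no background beside them. The part of length in the results was not tested.

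**Figure D3:**
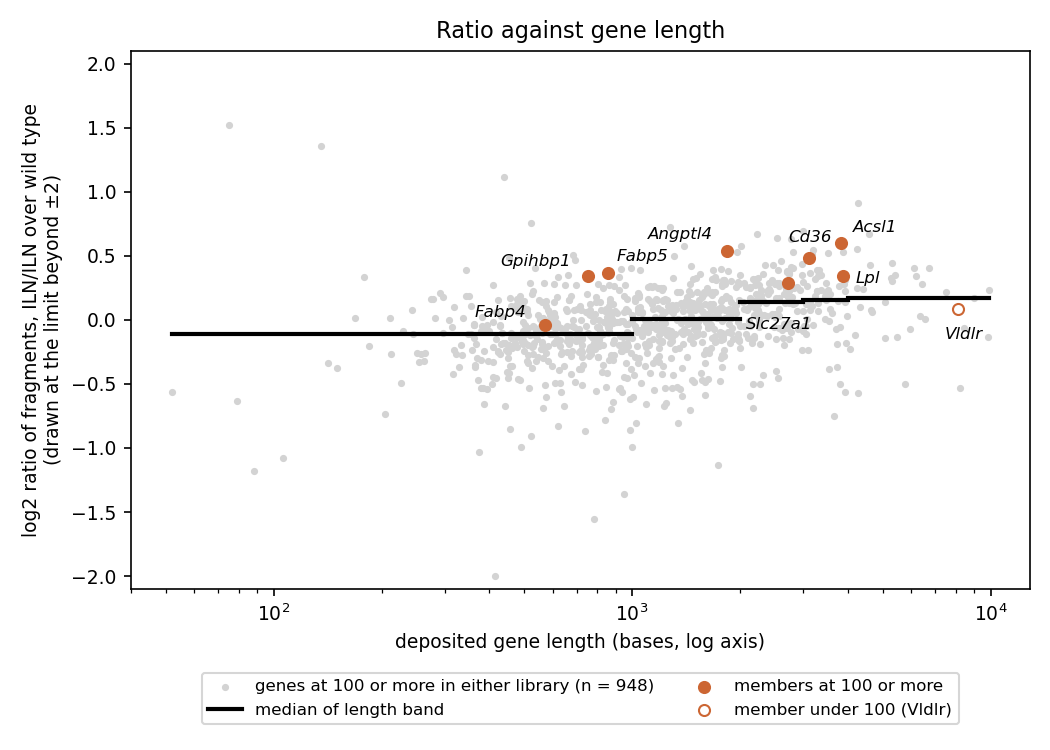
Log2 ratio of fragments, ILN/ILN over wild type, against deposited gene length (log axis) for the 948 genes at 100 or more in either library (grey), with the median of each length band (black lines) and the 9 members (filled, or open for Vldlr, which is under 100). The band medians rise from -0.11 to 0.17 with length, and 8 of the 9 members lie above the line of their band. By definition each line splits the grey genes of its band evenly.

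The ratios were read beside markers of the cells in the gland. Of 10 white adipocyte markers 8 had a ratio above 1, beside 52.9% of measured genes. Their log2 ratios ran from -0.42 to 0.44 and the median was 0.16. Adipoq, which encodes adiponectin, was at 3534 and 3580 and Cfd, which encodes adipsin, at 33952 and 25466. The 10 summed to 46534 in wild type against 38990 in ILN/ILN, but without Cfd the sum of the other 9 was higher, 13524 in ILN/ILN beside 12582 in wild type. Relative to the adipocyte median on the log2 scale, Acsl1 was at 0.44, Angptl4 at 0.38, Cd36 at 0.32, Fabp5 at 0.20, Gpihbp1 and Lpl at 0.18, Slc27a1 at 0.12, Vldlr at -0.08 and Fabp4 at -0.20.

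Endothelium makes Gpihbp1 and much of the Cd36 and Fabp4 of a capillary bed. Of 10 endothelial markers 7 had a ratio above 1, beside 52.9% of measured genes, so they lay on both sides of an equal share. Their log2 ratios ran from -0.12 to 0.49, with a median of 0.20 and summed levels of 165 and 189. Cdh5, a junction cadherin of these cells, was at 31.6 and 44.5, and Pecam1, an adhesion molecule of the same cells, at 40.3 and 38.6. Gpihbp1 lay 0.14 above the endothelial median on the log2 scale and Cd36 0.27 above it. Macrophages also make Lpl, Cd36, Fabp4 and Fabp5. All 8 macrophage markers were lower in the ILN/ILN library, where 52.9% of measured genes had a ratio above 1. Their log2 ratios ran from -0.86 to -0.18, with summed levels of 2915 and 2092. Lyz2, which encodes lysozyme, was at 990.1 and 836 and C1qb, a complement gene, at 718 and 468, while Lpl, Cd36 and Fabp5 were higher and Fabp4 close to equal.

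Markers of other cells moved further. The 6 measured luminal epithelial markers were all lower by 2-fold or more in ILN/ILN, beside 3.35% of measured genes. The 10 listed summed to 39.3 and 0.929. Beside the keratins given above, Elf5, a luminal transcription factor, had 51 and 0 fragments, and of the milk protein genes Csn2 had 0 in both and Wap 1 and 0. Krt5, Krt14 and Krt17 of basal epithelium and skin had 78, 62 and 59 fragments in wild type against 0 in ILN/ILN, and Krt1 had 0 and 1. Sbsn, made in the outer skin, was at 45.2 and 21.2 and Trp63, a basal cell factor, at 3.50 and 2.79. The 9 listed basal and skin markers summed to 55.3 and 24.8 and the 5 B cell markers to 170 and 32.9, with Cd79a at 80.6 and 9.89 and Cd79b at 61.0 and 17.6. The defining luminal markers were thus at or near 0 in the library where 8 of the 9 uptake genes were higher. The part of these cells in the members' ratios was not tested.

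The other genes of the route were evenly divided. Of 46 measured genes on 5 lists of related genes, 23 had a ratio above 1, beside 52.9% of measured genes, and 23 below. Their median log2 ratio was 0.00. At least 25% higher were 6 of the 46, beside 12.1% of measured genes, and 5 were at least 20% lower, beside 15.7%. At least 1.5-fold higher was 1 of the 46, beside 2.84% of measured genes, and 2 were at least 1.5-fold lower, beside 7.57%. Among 12 other genes of the lipoprotein lipase system 0 were at least 1.5-fold higher, beside 2.84% of measured genes, and 1 was at least 1.5-fold lower, beside 7.57%. The lower gene was Apoc2, which encodes the activator of the lipase. It was at 10.8 in wild type against 6.61 in ILN/ILN, with 311 and 177 fragments, 1.64-fold lower (1.36 to 1.98). The most abundant genes of this list, Apoe and Apoc1, encode lipoprotein components that macrophages also make, and they were 1.22-fold (1.21 to 1.22) and 1.21-fold lower (1.17 to 1.247). Lrp1, next in abundance and named after its values were known, was at 66.3 and 77.8, a ratio of 1.17 (1.16 to 1.19). Of the 12 genes, 5 had a ratio above 1, beside 52.9% of measured genes, and 7 below. Lmf1, which encodes the factor that folds the lipase and falls outside the naming rule, having been picked with its values known, was at 20.7 and 21.4, a ratio of 1.03 (0.963 to 1.10).

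Of 5 measured transporters besides the members 0 were at least 25% higher, beside 12.1% of measured genes, and 0 at least 20% lower, beside 15.7%. Cav1, which encodes the coat protein of caveolae, was at 234 and 277, a ratio of 1.18 (1.16 to 1.204), and Got2, a mitochondrial enzyme also described as a fatty acid binding protein of the plasma membrane, at 24.4 and 23.5, a ratio of 0.959 (0.908 to 1.01). Among 7 measured lipid-binding proteins, Fabp3, the binding protein of heart, muscle and brown fat, was at 11.01 and 20.01. It had 318 and 538 fragments and was 1.82-fold higher (1.58 to 2.09), the highest ratio of the 46. Of the muscle markers beside it, Myl1 was at 37.7 and 51.4, Acta1 at 8.20 and 7.90 and Myh4 had 7 and 0 fragments. Mylpf, the third measured muscle marker and outside the naming rule, had 64 and 29 fragments, a ratio of 0.487 (0.303 to 0.766), so the muscle markers lay on both sides of an equal share. Of the brown fat markers, Ucp1, named after its values were known, was at 59.7 and 26.0, Cidea at 282 and 244 and Cox8b at 1449 and 1451. Cpt1b, also named after its values were known, had 125 and 156 fragments, a ratio of 1.34 (1.05 to 1.71). Of the 4 measured brown fat markers, 2 had a ratio above 1, beside 52.9% of measured genes, and 2 below. The 6 muscle markers summed to 48.5 and 60.9 and the 5 brown fat markers to 1803 and 1736.

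Fabp1, the liver binding protein, had 47 and 21 fragments and was 2.08-fold lower (1.22 to 3.67). The abundant Dbi, which encodes the acyl-CoA binding protein, was at 3909 and 3831 and Scp2, a sterol carrier, at 467 and 480. Their ratios were 0.980 (0.969 to 0.990) and 1.03 (1.01 to 1.04). Among 8 measured acyl-CoA synthetases besides Acsl1, 0 were at least 1.5-fold higher, beside 2.84% of measured genes, and 0 at least 1.5-fold lower, beside 7.57%. Acss2, which activates acetate, had a ratio of 1.19 (1.16 to 1.22). Acss3, of the same short-chain family, had 2465 and 3124 fragments and a ratio of 1.36 (1.29 to 1.44), although its deposited values of 45.7 and 58.9 were not made from these fragments alone. Acss1, also of this family and named after its values were known, went the other way. It had 1319 and 864 fragments and a ratio of 0.704 (0.645 to 0.767). Of the 8 synthetases, 3 had a ratio above 1, beside 52.9% of measured genes, and 5 below.

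Of the 14 regulators on the list, 9 had a ratio above 1, beside 52.9% of measured genes. At least 25% higher were 4 of the 14, namely Flt1, Ppara, Tcf15 and Vegfb, beside 12.1% of measured genes, and 0 were 20% lower, beside 15.7%. At least 1.5-fold higher were 0, beside 2.84% of measured genes, and 1.5-fold lower 0, beside 7.57%. Vegfb, whose product acts on endothelial fatty acid transport, had 3742 and 4565 fragments, 1.31-fold higher (1.255 to 1.37), while its deposited values, not made from these fragments alone, were 352 and 363. Cebpa, an adipocyte transcription factor, was at 148 and 181, 1.22-fold higher (1.199 to 1.248). Flt1, Tcf15 and the PPAR genes were chosen after their values were seen. Pparg, the nuclear receptor that drives adipocyte genes including Fabp4 and Lpl, was at 147 and 149, with a ratio of 1.01 (0.983 to 1.04). Ppara was at 7.26 and 10.6, 1.46-fold higher (1.38 to 1.54), and Ppard, of which Angptl4 is a known target, was at 11.95 and 11.1, a ratio of 0.927 (0.866 to 0.992). The 3 receptors thus lay on both sides of an equal share, with the most abundant of them nearest to it.

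**Figure D4:**
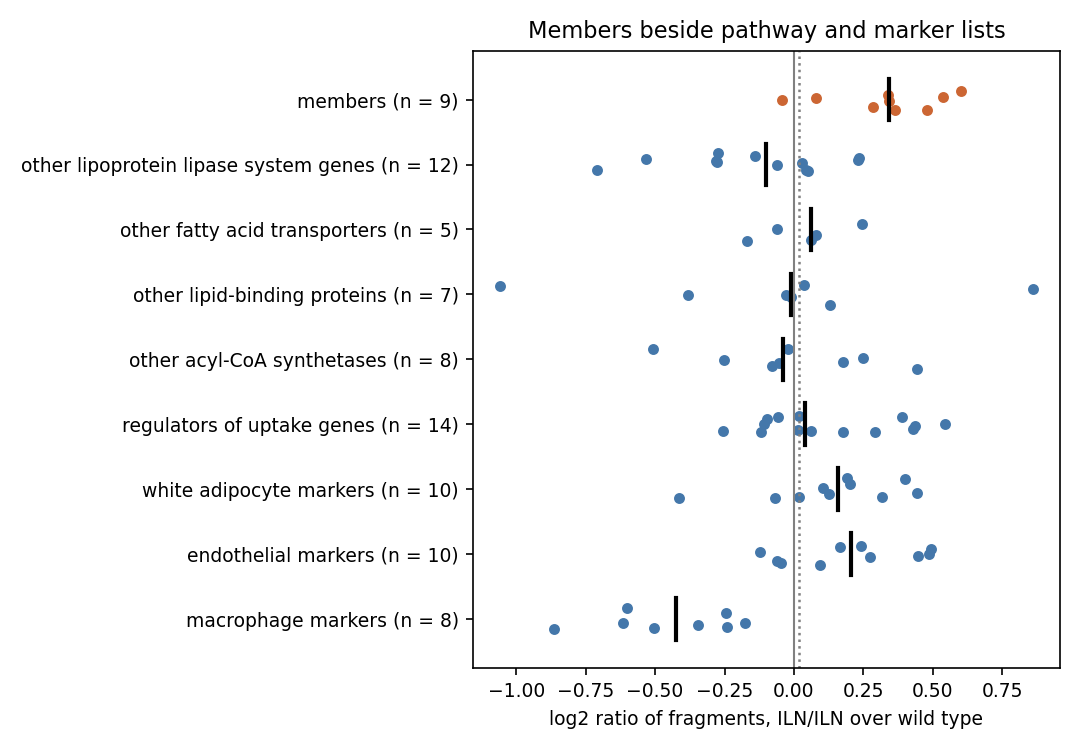
Log2 ratio of fragments, ILN/ILN over wild type, for each measured gene (points, spread vertically for visibility) of the members, the 5 lists of related genes and 3 marker lists, with list medians (black bars), a solid line at 0 and a dotted line at the median of all measured genes (0.02). The median of the 9 members is 0.34, against -0.10 for other genes of the lipase system, 0.16 for white adipocyte, 0.20 for endothelial and -0.42 for macrophage markers.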

How the data were processed

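Polyadenylated RNA from 1 wild-type and 1 ILN/ILN mammary gland sample was copied with dUTP second-strand marking and run on 2 lanes per sample, per the labels' protocols. Bowtie 0.12.3, TopHat 1.4.1, bedtools and mm9 stand in the submitters' processing notes. Which program counted, on which annotation, and how it handled strand and shared reads, is not stated in these sources. The reference used here is GRCm38, so no gene coordinates in mm9 are given.

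The authors deposited an FPKM-like value per gene, per the file headers, its log2(value + 1), and a signal per kilobase as an original, a derived and a final estimate. The final signal was the larger estimate throughout the 21113 rows. The original signal times the deposited length came out whole, to within 0.01, for 100% of detected genes. It is called fragments here, and these may be reads or read pairs. For all 9 members the deposited value came from the fragments in both libraries.

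Ratios used fragments over library totals, with counts under 3 set to 3 for calls (Python 3.11.15, scipy 1.17.1). Fragments were not taken as unique molecules, since no molecular identifier is described, so intervals and this floor cover counting error only. Related genes and markers were named by a rule: related genes past 1.5-fold, the 2 most abundant of each list, and markers at 0 in a library. With 2 libraries no likeness of pattern between genes was computed. Protein sequences were not analysed here. Values of some single genes on the lists are left out of the text. The members and lists were chosen with earlier results of these data known. The ratio and interval step was tested on simulated data. Alternatives covered the pseudocount, scaling, minimum and gene length.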

Additional observations from a re-analysis of the deposited data

How the results depend on the processing

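Each setting was changed alone. Acsl1, Angptl4, Cd36, Fabp5, Gpihbp1, Lpl and Slc27a1 had a log2 ratio above 0 under all 8 alternatives to fragments over library totals, from 0.15 (Slc27a1, relative to its length band) to 0.60 (Acsl1). The median of the 9 members ran from 0.32 to 0.34. Fabp4 ran from -0.06 to 0.07 and Vldlr from -0.09 to 0.08, and both changed sign only relative to their length band. The scalings shifted all ratios by -0.00 to 0.02 on the log2 scale, and TMM was computed from its published definition. Acsl1 lay close to 1.5-fold, and the count of members at least 1.5-fold higher was 0 in place of 1 when the median gene ratio was set to 1 and relative to length bands. Members at least 25% higher were 5 or 6 in all settings. Of the related genes, those at least 1.5-fold lower numbered 2, but 0 with a pseudocount of 5, 1 with a minimum value of 5 and 8 with no minimum, and those at least 1.5-fold higher numbered 1, but 2 with no minimum. The additions with no minimum have few fragments (Mfsd2a, 64 and 14). No paired analysis was possible because each genotype had 1 library, and for the same reason no library could be left out. Depth did not limit the members, which had at least 3437 fragments per library.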

Other observations

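The deposited tables hold a derived estimate beside the fragments for genes with several isoforms, and it behaved differently for Cd36. The table lists 5 isoforms of Cd36, of which 3 were measured. On the scale of the deposited values, the derived estimate of Cd36 was 2.53 in wild type against 9.45 in ILN/ILN, a ratio of 3.74, beside 107 and 149, a ratio of 1.39, from its fragments. For Vldlr, with 2 isoforms, the derived estimate was 1.98 and 2.38, a ratio of 1.21, beside 1.06 from fragments. The sources do not state how the derived estimate was made, and it did not enter the deposited value of either gene. The other 7 members have 1 isoform each in the table, and there both estimates were equal.

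Some genes of the route stayed under the minimum value of 1 but differed in fragments, and these examples were picked with their values known. Mfsd2a, which encodes a lysophospholipid transporter, had 64 and 14 fragments. Slc27a6, which encodes a transport protein of heart, had 49 and 18, and Acsbg1, an acyl-CoA synthetase of brain and steroid-making tissue, 106 and 50. Lipc, which encodes the hepatic lipase, went the other way, with 4 and 24 fragments.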
